A study of Mus musculus with 6 samples.

Results

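The genes examined here encode the machinery that writes and erases H3K27me3, trimethylation of lysine 27 on histone H3. They are 10 of the 26220 mouse genes with a curated RefSeq transcript. All 10 were chosen by function and by name: the Polycomb repressive complex 2 (PRC2) genes Ezh2, Ezh1, Eed, Suz12, Rbbp4, Rbbp7, Jarid2 and Aebp2, and the demethylase genes Kdm6a and Kdm6b. Each was looked up in the 8 gene lists that were deposited with an H3K27me3 chromatin immunoprecipitation sequencing (ChIP-seq) experiment. The material was primary granulosa cells (GCs), which surround the oocyte and make steroids, from wild type C57BL/6J mice of 8 to 9 weeks. The 3 control samples were cultured without agent, and the 3 DHT samples received 25 nM dihydrotestosterone, a non-aromatizable androgen, for 24 h. Per the labels, GCs of 30 mice were pooled and plated in 6 dishes, so a sample is a dish and not an animal.

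The files hold 1 peak list and 1 gene list of each kind per group. No values per sample were given, so sequencing depth is unknown and control and DHT cannot be compared against replicate spread. Each group of 3 samples is treated here as 1 pool, although how its samples were combined is not known. A gene in a list had at least 1 peak of its group in its body or its promoter. A gene outside a list had no peak that passed the limit of the caller, which is not the same as having no mark. The lists hold no expression values, so the labelled cell type could not be checked by its markers. Of 8 granulosa cell markers looked up, the gene body lists held Fshr for both groups, Cyp19a1 for control alone and Nr5a2 for DHT alone, and the other 5 were unlisted. Of 14 markers of theca and stroma, endothelium, immune cells and oocyte, 4 were in the control list, and 2 of these, Pecam1 and Ptprc, were also in the DHT list. Another of the 4, Lhcgr, was counted under theca and stroma, although the study measures it in GCs as a key ovarian gene.

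As background, PRC2 places methyl groups on lysine 27 of histone H3. EZH2 and EZH1 are its alternative catalytic subunits, and neither is active without EED and SUZ12. EED binds the finished mark and so helps PRC2 spread it, SUZ12 holds the complex together, and the sister proteins RBBP4 and RBBP7 bind histones. JARID2 and AEBP2 are accessory subunits of the same form of the complex and help it to reach and act on chromatin. KDM6A (UTX) and KDM6B (JMJD3) take the methyl groups off again. In GCs the study places EZH2 and JMJD3 at the centre of the androgen response, so these genes were looked up for the mark that their own products set and remove.

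In the gene body, 4 of the 10 genes were listed at least once. Ezh2 and Jarid2 were in the control list alone, Kdm6a was in both lists, and Aebp2 was in the DHT list alone. Ezh1, Eed, Suz12, Rbbp4, Rbbp7 and Kdm6b were in neither. The control list thus held 3 of the 10 genes and the DHT list 2, against 11.9% of all genes for control and 4.36% for DHT. By state, 9.36% of all genes were in the control list alone (2453 genes, the pattern of Ezh2 and Jarid2), 2.59% were in both (680 genes, that of Kdm6a) and 1.76% were in the DHT list alone (462 genes, that of Aebp2). These counts rest on 10 genes and are a description.

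By role, the catalytic and the demethylase pairs were each split. Of the catalytic subunits, Ezh2 was listed and Ezh1 was not. Of the demethylases, Kdm6a was listed in both groups and Kdm6b in neither. The core subunits Eed and Suz12 and the histone-binding subunits Rbbp4 and Rbbp7 were all outside the lists. Both accessory subunits were listed, but in opposite groups: Jarid2 in control and Aebp2 after DHT. Of the 8 PRC2 genes, the control list held 2 and the DHT list held 1, against 11.9% and 4.36% of all genes. The listed genes were also the longest of the set, as given below, and a link of listing to role was not tested.

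In the promoter, which the study took as 1 kb up- and downstream of the start, 0 of the 10 genes were listed in either group. Few genes were: 0.603% of all genes in control and 0.206% after DHT. The other 4 lists hold genes regulated by DHT that also had a gene body peak or a linked enhancer. None of the 10 was in them. These lists were short. They held 0.0839% of all genes as upregulated with a gene body peak, 0.0572% as downregulated with a gene body peak, 0.233% as upregulated and linked to an enhancer, and 0.126% as downregulated and linked to an enhancer. The list of downregulated genes with a gene body peak has more entries than the text of the study counts, and the reason is not known. A gene without such a peak or enhancer could not enter these lists, so for most members they do not say whether expression changed. Ezh2, Jarid2, Kdm6a and Aebp2 had a gene body peak and could enter the lists of regulated genes with such a peak. Their absence is what a gene short of the study's cut for differential expression would show, and a smaller change remains possible. The study also measured some of these genes outside the lists. By quantitative PCR it saw no effect of DHT on Jarid2 and a rise of Kdm6b. It also cites earlier work of its authors in which androgens lowered Ezh2 expression.

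The listed genes were the longest of the set. Gene span, the distance from first to last annotated base, was taken from the RefSeq annotation of GRCm38.p6, because an mm9 annotation was not used here. Jarid2 spans 190.87 kb, Kdm6a 119.1 kb, Ezh2 65.0 kb and Aebp2 56.0 kb. The 6 unlisted genes follow below these, from Suz12 at 41.0 kb, Ezh1 at 35.3 kb, Rbbp4 at 28.3 kb and Eed at 26.3 kb to Kdm6b at 21.9 kb and Rbbp7 at 18.7 kb. The spans of listed and unlisted members did not overlap, and their medians were 92.0 and 27.3 kb. All 10 genes exceeded the median of all protein-coding genes, 17.7 kb.

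**Figure D1:**
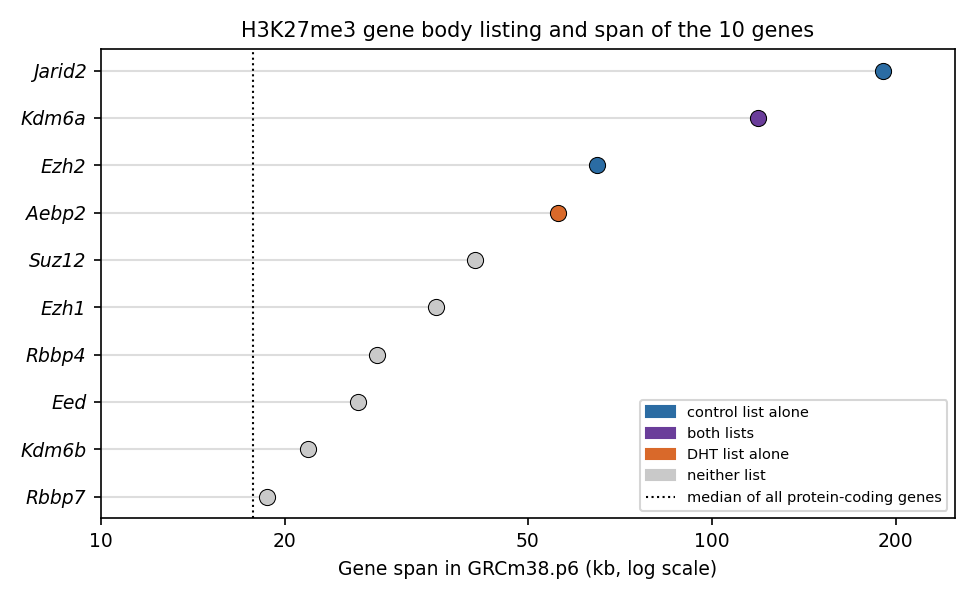
Gene span in kb on a log scale for each of the 10 genes, ordered by span and coloured by the gene body lists that hold it; the dotted line is the median of 21031 protein-coding genes. The 4 listed genes, from Aebp2 at 56.0 kb to Jarid2 at 190.87 kb, lie to the right of all 6 unlisted genes.

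Across all protein-coding genes the listed share climbed with span, so the members were set against genes of their own size. Of 4953 protein-coding genes from 20 to 50 kb, the class of Ezh1, Eed, Suz12, Rbbp4 and Kdm6b, 10.7% were in the control list (95% Wilson interval 9.87 to 11.6%) and 2.73% in the DHT list (2.31 to 3.22%). For these 5 genes the state of being in neither list was shared by 87.5% of the class. In the class of Ezh2 and Aebp2, 50 to 100 kb, 25.9% of 2470 genes were in the control list (24.2 to 27.6%) and 7.41% in the DHT list (6.44 to 8.51%). In the class of Jarid2 and Kdm6a, 100 to 200 kb, the shares of 1424 genes were 48.7% (46.1 to 51.3%) and 17.1% (15.2 to 19.1%). The intervals cover counting error only.

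The states of the individual listed genes differed in how common they were in their class. The control list alone held 23.1% of genes from 50 to 100 kb, the state of Ezh2, and 39.0% of genes from 100 to 200 kb, the state of Jarid2. Aebp2, in the DHT list alone, shared its state with 4.62% of its class. Kdm6a, in both lists, shared its state with 9.76% of its class. Thus Aebp2 and Kdm6a were in the less frequent states and Ezh2 and Jarid2 in frequent ones.

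**Figure D2:**
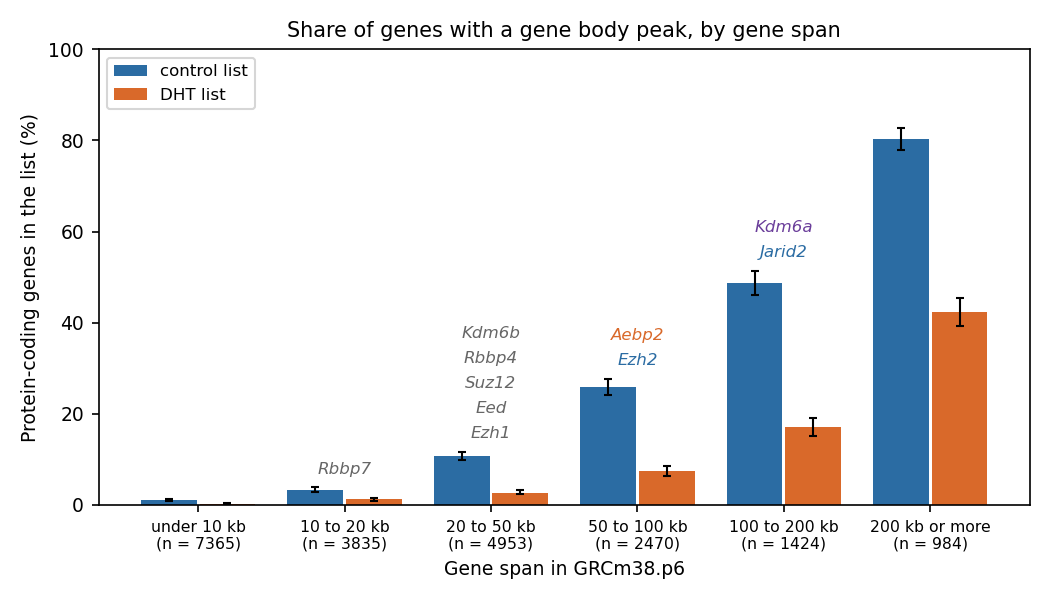
Share of protein-coding genes in the control and the DHT gene body list (percent, bars from 0) by class of gene span, with 95% Wilson intervals for counting error as error bars. The names of the 10 genes stand over their class in the colour of their list, blue for control alone, orange for DHT alone, purple for both and grey for neither; the share in the control list climbs from 0.978% under 10 kb to 80.4% at 200 kb or more.

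Length of the mature transcript separated the members less. The longest GENCODE vM21 transcript measured 8353 nt for Jarid2, 5935 nt for Kdm6a, 5932 nt for Aebp2 and 2787 nt for Ezh2. Among unlisted members it ran from 2067 nt for Eed to 6654 nt for Kdm6b, so here the groups overlapped. Against the span, the transcript made up 4.29% for Ezh2, 4.38% for Jarid2 and 4.98% for Kdm6a, and 30.4% for Kdm6b, the most compact gene of the set. Aebp2, at 10.6%, lay near Suz12, at 10.7%.

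To see whether the gene body calls stood alone or within a stretch of listed genes, the 5 protein-coding genes on each side of each member were looked up, in the gene order of GRCm38.p6. Of these 100 neighbours, the control list held 23 (23.0%) and the DHT list 4 (4.0%), against 13.6% and 4.96% of all protein-coding genes. The neighbours were longer than these, with a median span of 25.5 kb against 17.7 kb. At 10 genes on each side the shares were 21.0% and 6.5%. Beside Ezh2, neither adjacent gene was listed. At the next place on one side lay Cntnap2, a neuronal adhesion gene of 2241 kb in both lists. Jarid2 had no listed gene within 3 places, with Ranbp9 and Atxn1 in control and Stmnd1 after DHT farther out.

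Beside Kdm6a, Maob, Efhc2, Dipk2b, Chst7 and Slc9a7, or 5 of its 10 neighbours, were in the control list, and none of the 10 was listed after DHT. At 10 genes on each side its control count was 6 of 20, compared with 8 of 20 for Aebp2 and 7 of 20 for both Eed and Jarid2. Within 5 places, Kdm6a was the sole gene of 11 in the DHT list. The other X-linked member, Rbbp7, was unlisted although Nhs, Reps2, Ctps2 and S100g near it were in the control list. Aebp2 had Plekha5, in both lists, on one side and Pde3a, in the control list alone, on the other. Pik3c2g, in both lists, and Slco1b2, in the control list alone, lay farther off. Aebp2 was the sole gene of its 11 in the DHT list alone.

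Among unlisted members, Eed had the listed neighbours Picalm, Ccdc81 and Me3, Suz12 had Evi2 and Evi2a, and Ezh1 had Cntd1, each in the control list alone. Rbbp4 and Kdm6b had 0 listed neighbours of 10, and 0 of 20 when the count was widened to 10 genes on each side. The neighbours of Kdm6b were short, with a median span of 6.92 kb against 44.2 kb for those of Kdm6a. The members Ezh2, Rbbp4 and Rbbp7 each overlap another annotated gene (F830010H11Rik, Sync and Txlng), and none of these 3 was listed. Of these members only Ezh2 was itself listed. Whether F830010H11Rik, a long non-coding RNA gene, was in the annotation behind the lists is not known.

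**Figure D3:**
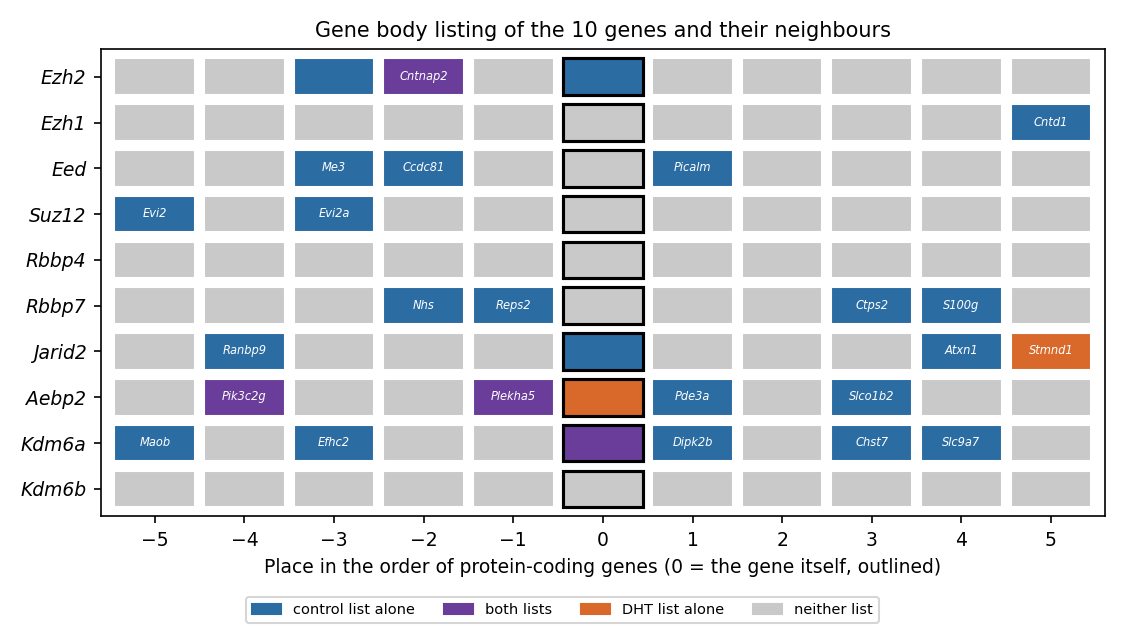
Gene body listing of each of the 10 genes (outlined, place 0) and of the 5 protein-coding genes before and after it; places count genes, not distance, and listed neighbours are named, with 1 exception. Kdm6a has 5 neighbours in the control list alone, while Kdm6b and Rbbp4 have 0 listed neighbours.

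The peaks themselves could be placed only by chromosome, since gene positions in mm9, the assembly of the peaks, were not used here. The 10 genes lie on 6 chromosomes, which together held 5112 control and 1164 DHT peaks, a ratio of 22.8%, compared with 25.0% on the other chromosomes. Chromosome X, with Kdm6a and Rbbp7, had 1141 control and 186 DHT peaks (16.3%). Chromosome 6, with Ezh2 and Aebp2, had 978 and 196 peaks (20.04%). Chromosome 11, which carries the unlisted Ezh1, Suz12 and Kdm6b, had 646 and 195 peaks (30.2%). Chromosomes 4, 7 and 13, with Rbbp4, Eed and Jarid2, had ratios of 23.9%, 25.8% and 25.7%. With peaks held to a stricter q-value of 0.001, the ratio on the 6 chromosomes was 60.2%, and among peaks enriched 4-fold or more it was 88.3%. On the other chromosomes these ratios were 75.0% and 100.4%, so the ratio depended on the limit in both sets. Fold is relative to the background of each pool, so a 4-fold limit may not be equally strict in both groups. On the 6 chromosomes it kept 810 of 5112 control and 715 of 1164 DHT peaks. The ratio at this limit therefore does not give the change in strong peaks.

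The chromosomes differed in how many of their genes were listed. Of protein-coding genes, 15.9% on X, 15.9% on 13 and 15.4% on 6 were in the control list, compared with 9.16% on 11 and 6.63% on 7. In the DHT list the shares were 4.31% on X, 6.55% on 13, 5.56% on 6, 3.73% on 11 and 2.18% on 7. On 4, with the unlisted Rbbp4, the shares were 11.8% in control and 4.63% after DHT. Rbbp7, also unlisted, shares X with Kdm6a. Median fold enrichment within the lists varied little between the 6 chromosomes, from 3.42 to 3.49 in control and from 4.13 to 4.26 after DHT. Fold enrichment is relative to the background of each pool, so these medians are not compared between the groups.

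**Figure D4:**
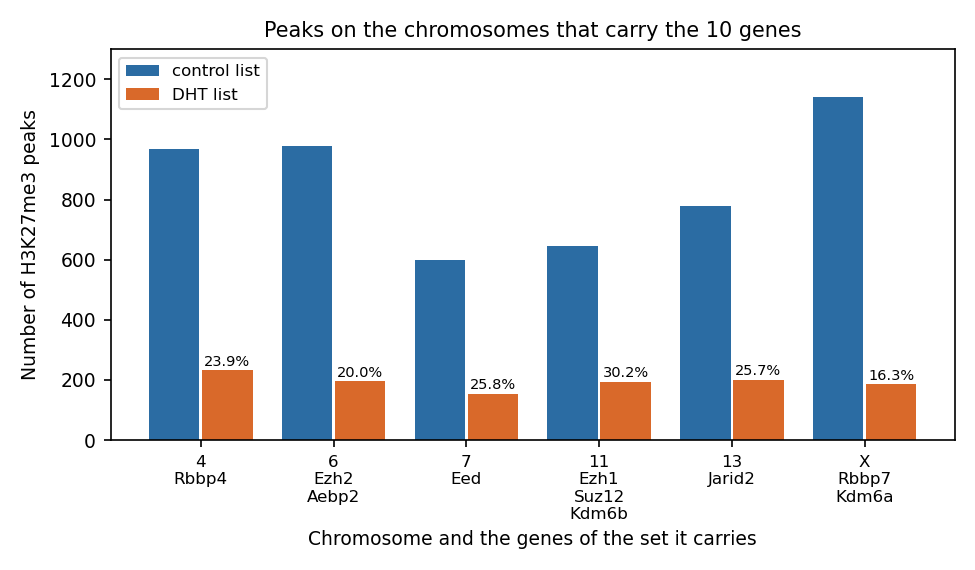
Number of H3K27me3 peaks in the control and the DHT list (bars from 0) on each chromosome that carries a gene of the set, named under it; the percentage is the DHT number relative to control. It is lowest on X, at 16.3%, and highest on 11, at 30.2%.

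Since none of the promoters was listed, their sequence was examined for what they share. RefSeq promoter windows of GRCm38.p6, from 250 bases before to 50 after a start, were found for 9 of the 10 genes (12 windows). Kdm6b had no entry. The number of CpG dinucleotides, which cluster at the starts of many broadly used genes and of classical Polycomb targets, had a median of 23 in the member windows, against 7 in all 32851 windows. Suz12 had 41, Rbbp4 39, Rbbp7 38, Ezh2 31, Ezh1 23, Kdm6a 21 and Eed 17. In order of position, Jarid2 had windows of 24 and 23, and Aebp2 had windows of 4, 21 and 4. Thus 10 of 12 windows held at least 15 CpG, as did 34.6% of all windows. The windows of genes in the promoter lists had medians of 6.5 CpG in control and 8 after DHT, close to all windows and below those of the members.

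The first window of each gene with a gene body peak is printed as an example, 5′ to 3′ on the strand of the gene, with each CpG in capitals. They lie at chr6:47594981-47595280 (minus strand) for Ezh2, chr13:44730524-44730823 (plus) for Jarid2, chr6:140622413-140622712 (plus) for Aebp2 and chrX:18162325-18162624 (plus) for Kdm6a.
Ezh2: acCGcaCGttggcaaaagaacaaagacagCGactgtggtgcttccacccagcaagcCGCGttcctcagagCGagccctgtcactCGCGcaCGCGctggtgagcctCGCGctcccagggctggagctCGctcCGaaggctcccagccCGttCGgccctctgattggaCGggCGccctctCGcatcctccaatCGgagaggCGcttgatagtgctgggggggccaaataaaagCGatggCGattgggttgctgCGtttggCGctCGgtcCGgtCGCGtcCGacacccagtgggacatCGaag
Jarid2: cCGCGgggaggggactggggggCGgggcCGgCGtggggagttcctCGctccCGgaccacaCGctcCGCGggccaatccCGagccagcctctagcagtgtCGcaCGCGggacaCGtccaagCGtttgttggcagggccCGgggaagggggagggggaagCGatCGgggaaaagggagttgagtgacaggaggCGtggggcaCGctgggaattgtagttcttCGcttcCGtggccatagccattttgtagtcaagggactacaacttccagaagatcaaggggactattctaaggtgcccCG
Aebp2: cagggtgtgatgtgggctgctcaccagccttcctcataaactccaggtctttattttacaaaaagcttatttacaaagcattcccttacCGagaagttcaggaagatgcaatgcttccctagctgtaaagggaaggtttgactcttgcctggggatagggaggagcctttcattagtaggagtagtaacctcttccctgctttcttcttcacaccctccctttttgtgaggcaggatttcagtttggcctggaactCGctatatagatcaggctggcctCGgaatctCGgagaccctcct
Kdm6a: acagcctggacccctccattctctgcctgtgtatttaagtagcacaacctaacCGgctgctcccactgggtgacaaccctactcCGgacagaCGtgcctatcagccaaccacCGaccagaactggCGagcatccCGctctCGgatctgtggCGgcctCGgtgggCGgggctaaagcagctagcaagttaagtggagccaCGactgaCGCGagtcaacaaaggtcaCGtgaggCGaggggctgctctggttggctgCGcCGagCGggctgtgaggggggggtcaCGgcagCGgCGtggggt

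In these runs Ezh2 has 31 CpG, Jarid2 24, Kdm6a 21 and Aebp2 4. The first window of Aebp2, first by position alone, is thus poor in CpG, unlike those of the other 3 genes. Its second window holds 21, as many as that of Kdm6a, so this contrast depends on which start is printed.

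A factor that the study places upstream was looked up in the same way. Hif1a, which encodes the oxygen-regulated subunit of hypoxia-inducible factor, was in both gene body lists with a span of 46.2 kb. In its class of 20 to 50 kb, 0.929% of genes were in both. It was in none of the other 6 lists.

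Finally, 89 genes that work beside PRC2 and the demethylases were looked up by group, and all 89 matched. The control list held 16 (18.0%) and the DHT list 9 (10.1%), with 3 in both, 13 in control alone, 6 in DHT alone and 67 in neither. Over all genes the shares were 11.9% and 4.36%, and among protein-coding genes from 50 to 100 kb, the class that holds the median span of the related genes (53.1 kb), they were 25.9% and 7.41%. This class holds 22 of the 89 and the others are shorter or longer, so its shares are a rough guide only. The promoter lists and the lists of regulated genes held 0 of them. Of 7 further PRC2 accessory genes, Lcorl alone was listed, in control. Polycomb repressive complex 1, which reads the mark and ubiquitinates histone H2A, had 28 genes. Rnf2, Rybp, Scml4 and Sfmbt1 were in control alone, Scmh1, Sfmbt2 and L3mbtl3 in DHT alone, and Auts2 in both. Rnf2 and Ring1 encode its alternative catalytic subunits, and Ring1 was in neither list.

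Of 8 genes of the H2A deubiquitinase, Mbd5 was in control alone and Asxl3 in both. Of 9 partners of KDM6A in the MLL3 and MLL4 complexes, Ash2l was in control alone and Rbbp5 in DHT alone. Of the acetyltransferases that modify the same lysine, Crebbp was in control alone and Ep300 in neither. Among 19 other histone demethylase genes, Jmjd1c, Kdm4c and Kdm4d were in control alone and Kdm3b in DHT alone. Uty and Kdm5d, both in neither list, are Y-linked and could not be listed in cells of female mice. They remain in the counts of related genes and so lower the listed shares. Among 16 other lysine methyltransferase genes, Ehmt1 and Setdb2 were in control alone, Ehmt2 in DHT alone and Prdm16 in both.

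**Figure D5:**
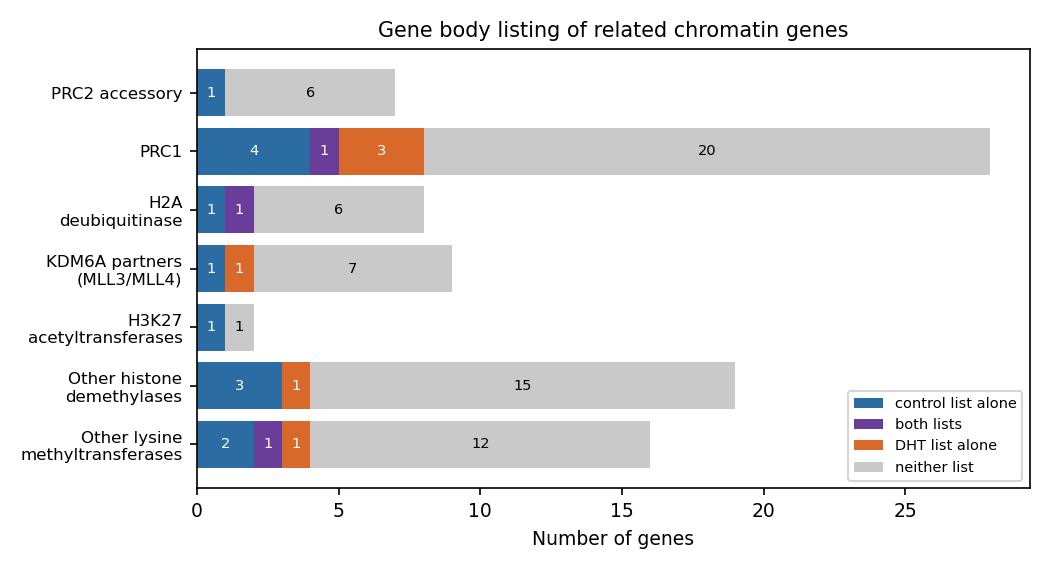
Number of genes in each group of related chromatin genes, divided by the gene body lists that hold them. In every group with more than 2 genes most are in neither list, and PRC1 holds 8 listed genes of 28.

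Among the related genes median span also differed by state, but the listed share did not climb with every class of span. The median was 107.9 kb for the 13 in control alone and 321.2 kb for the 3 in both, against 45.9 kb for the 67 in neither. Of 19 related genes from 100 to 200 kb, the Y-linked Uty among them, the control list held 8 and the DHT list 3. Of 12 under 10 kb, 0 were in either. Of 22 from 50 to 100 kb, the control list held 1 and the DHT list 1, fewer in control than the 4 of 23 from 20 to 50 kb. Of 6 at 200 kb or more, each list held 3. Smyd3, at 566.1 kb, was in neither list. The 6 in DHT alone had a median of 82.0 kb and included the shortest listed gene, Ehmt2, at 15.6 kb. Its place beside Aebp2 in the state of DHT alone is a description of 1 pooled list.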

How the data were processed

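H3K27me3 ChIP-seq of 6 samples (3 control, 3 DHT) was used as deposited. The authors mapped reads to mm9 with Bowtie2 2.3.4, kept unique reads and called broad peaks with MACS2 2.1.1 at a q-value of 0.05 or less. How replicates were combined, and whether an input library was used, is not given in the sources used here. The methods state another number of mice than the labels. For each peak the deposited files give a fold enrichment (a ratio) and a −log10 q-value. The other deposited files hold gene symbols only. The annotation behind them is not given in the sources used here.

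Here, symbols were matched to 26220 RefSeq genes of GRCm38.p6, exactly or by an older symbol that belongs to 1 gene. In the gene body lists 3133 of 3144 and 1142 of 1146 entries matched, in the promoter lists 158 of 160 and 54 of 55. GRCm38.p6 served for names, gene order, span and promoter sequence, and no peak was compared with it. Group assignment followed the labelled agent. No test was run, since the lists hold no value per sample. The lookup was tested on simulated data. The genes, the related lists and the comparisons were chosen with earlier results of these data known. All 10 genes, every listed related gene and every listed neighbour were to be named, of which 1 neighbour is not reported here. Intervals are 95% Wilson intervals. Tables were handled with pandas 2.3.3 and numpy 2.4.6, intervals with scipy 1.17.1 and plots with matplotlib 3.10.9, under Python 3.11.15.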

Additional observations from a re-analysis of the deposited data

How the results depend on the processing

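No paired analysis was possible because each group of 3 samples has 1 list without values per sample, and for the same reason no replicate could be left out. Of 26 alternatives over 13 results, 14 moved the value by less than its set range, among them every form of symbol matching, which left 3 and 2 members in the gene body lists and 0 in the promoter lists. The share of all genes in the control list, 11.9%, became 13.6% for protein-coding genes, 34.2% for spans from 50 to 200 kb and 61.3% for spans over 100 kb; in the DHT list, 4.36% became 4.96%, 11.1% and 27.1%. The DHT to control ratio of peaks on the 6 chromosomes, 22.8%, became 38.1% and 60.2% at q-values of 0.01 and 0.001 or less, 88.3% for peaks enriched 4-fold or more and 19.1% by covered length. The 4-fold limit rests on a fold relative to the background of each pool and may not be equally strict in both groups. The ratio of median length of listed to unlisted members was 3.37 by span and 1.38 by longest transcript. Member promoters had a median of 7.67 CpG per 100 bases, or 8.5 in the shorter window of 150 bases before and 50 after the start. The causes were not tested. The unknown depth of each sample limits any reading of a gene outside a list.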

Other observations

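Base composition of the gene bodies was computed from GRCm38.p6. Kdm6a had the lowest GC content of the 10 genes, 35.4% of its span, and Kdm6b the highest, 56.5%. The listed members lay between 35.4% and 44.5% and the unlisted between 38.3% and 56.5%, with medians of 41.0% and 41.4%. Over 21000 protein-coding genes the median was 45.5%, compared with 41.5% for genes in the control list and 42.9% for genes in the DHT list. Repeats, as soft-masked bases, made up between 21.3% (Jarid2) and 29.9% (Aebp2) of the listed members. Among unlisted members they ranged from 13.7% in Kdm6b to 41.4% in Suz12. Its part in the calls was not tested.

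The X-linked genes of the size of Kdm6a were also counted. Of 68 protein-coding genes on X from 100 to 200 kb, 34 (50%) were in the control list alone and 7 (10.3%) were in both, the state of Kdm6a. On all chromosomes the shares were 39.0% and 9.76%. The differences were not tested.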
